A study of Mus musculus with 12 samples.

Results

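The Pax genes encode transcription factors that bind DNA through a paired domain, and 8 of them (Pax1, Pax2, Pax3, Pax5, Pax6, Pax7, Pax8 and Pax9) were read by symbol from count tables that list 24391 gene symbols. By shared structure, Pax1 and Pax9 form one pair, Pax3 and Pax7 another, and Pax2, Pax5 and Pax8 a group of their own, while Pax6 belongs to a separate branch. In the head, Pax9 is known for its need in palate and tooth formation, Pax3 and Pax7 for roles in neural crest and muscle progenitors, and Pax6 for eye and nasal development. In several organs Pax proteins act in one regulatory network with the products of the Eya and Dach genes and their partners.

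The palatal shelves grow out of the upper jaw on both sides and fuse into the palate, and RNA was sequenced from the shelves of E13.5 embryos of the C57BL/6 strain. Each shelf had been divided into an anterior and a posterior portion. The 4 groups were anterior control (con_AP), anterior tamoxifen (TAM_AP), posterior control (con_PP) and posterior tamoxifen (TAM_PP), with 3 libraries each. Tamoxifen binds oestrogen receptors and modulates them differently by tissue, and the series title links it to cleft palate. Its dose and timing, the treatment of the controls, and whether libraries came from separate embryos or litters are not given in the labels, so p-values measure the spread between these libraries only.

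Total counts ran from 39.4 M to 73.0 M per library. Levels are given as CPM, counts relative to each library's total after TMM scaling. Of the 8 Pax genes 5 passed the low-count filter and were tested among 15958 genes, and Pax2, Pax5 and Pax8 did not. Pax6 had 10 or more counts in 6 of 6 anterior but 1 of 6 posterior libraries, and Pax7 in 2 of 6 anterior and 6 of 6 posterior ones. Both therefore entered the test through the palate part in which they were high. The region labels were checked with 4 anterior and 4 posterior markers, chosen with earlier results of these data known. In controls the 4 anterior markers were all called higher anteriorly and the 4 posterior ones lower, against 10.2% and 13.1% of all genes. This check is therefore a description. In bulk tissue, fewer cells of a type and less RNA per cell cannot be told apart.

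Promoter sequences are shown for the 3 members that were higher in the posterior palate and for Pax6, which was higher anteriorly, so that the promoters of genes with opposite patterns can be compared. They are the 250 bases before the start site (RefSeq, GRCm38.p6), 5′ to 3′ on the gene's strand, from a table that held 7 of the 8 members and no entry for Pax3. Capitals mark TGACG on either strand, the core of the cAMP response element, and CCAAT on either strand, the CCAAT box. The windows are chr12:56695221-56695470 (plus strand) for Pax9, chr2:147364744-147364993 (plus) for Pax1, chr4:139832969-139833218 (minus) for Pax7, and chr2:105668646-105668895 (plus) for the first of the 2 Pax6 entries.
Pax9: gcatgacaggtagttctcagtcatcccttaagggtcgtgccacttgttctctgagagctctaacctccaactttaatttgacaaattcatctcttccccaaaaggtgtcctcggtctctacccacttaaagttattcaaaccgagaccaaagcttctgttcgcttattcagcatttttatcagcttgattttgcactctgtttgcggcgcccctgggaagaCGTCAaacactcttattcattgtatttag
Pax1: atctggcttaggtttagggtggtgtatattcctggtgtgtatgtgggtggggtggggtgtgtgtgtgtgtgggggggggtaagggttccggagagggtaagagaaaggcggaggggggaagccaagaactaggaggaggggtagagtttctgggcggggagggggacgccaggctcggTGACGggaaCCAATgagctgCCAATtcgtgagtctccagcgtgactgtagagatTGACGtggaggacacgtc
Pax7: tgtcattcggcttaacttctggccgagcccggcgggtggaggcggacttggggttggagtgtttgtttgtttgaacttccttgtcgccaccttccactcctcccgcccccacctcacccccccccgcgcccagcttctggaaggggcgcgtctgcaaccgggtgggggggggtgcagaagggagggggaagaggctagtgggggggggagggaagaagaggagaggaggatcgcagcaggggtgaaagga
Pax6: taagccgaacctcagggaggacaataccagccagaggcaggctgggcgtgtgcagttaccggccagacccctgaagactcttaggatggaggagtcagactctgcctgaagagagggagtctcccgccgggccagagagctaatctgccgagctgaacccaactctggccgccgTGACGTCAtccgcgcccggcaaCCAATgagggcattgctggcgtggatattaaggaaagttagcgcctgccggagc
The Pax9 window held 1 TGACG, on the minus strand at position -29 from the start site. The Pax1 window held TGACG at -72 and -18 and CCAAT at -63 and -52. In the Pax6 window TGACG at -76 and its reverse complement at -73 overlapped, and CCAAT lay at -54. The second Pax6 entry, not printed, differed, with TGACG at -187 and -48 and no CCAAT. The Pax7 window held none of these letters. TGACG was present in 17.8% and CCAAT in 33.8% of 32851 promoter windows of this length, and a match describes letters, not a bound site. TATAAA (12.4% of windows), TAATTA (4.84%) and the GLI site TGGGTGGTC (0.225%), searched on both strands, occurred in none of the members' windows. GC content of the windows was 43.6% for Pax9, 58.8% for Pax1, 65.2% for Pax7 and 60.8% for the first Pax6 entry (47.6% for the second).

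Pax9 was the leading Pax transcript in every group. Counted per kilobase of the longest GENCODE transcript, it made up 82.9% ± 0.628 (SD, n = 3) of the summed Pax level in anterior controls and 83.5% ± 1.98 (SD, n = 3) in posterior controls. Under tamoxifen its share was 83.1% ± 2.93 anteriorly and 81.5% ± 3.05 posteriorly. The summed Pax level per kilobase was 22.7 ± 2.04 CPM in anterior and 45.6 ± 2.32 CPM in posterior controls (SD, n = 3). With tamoxifen it was 29.9 ± 2.74 and 55.0 ± 5.32 CPM. Behind a nearly constant Pax9 share, the other members changed places between the palate parts. In anterior controls the order per kilobase was Pax9 (18.8 CPM), Pax3 (2.64), Pax1 (0.813), Pax6 (0.375) and Pax7 (0.0547), with no overlap between neighbours over the 3 libraries. That order depends on the transcript chosen. Per kilobase of a gene's median transcript length, used after the data were seen, Pax1 (1.23 to 1.65 CPM) and Pax6 (1.11 to 1.32 CPM) overlapped in anterior controls, and the Pax9 share was 76.2% to 77.0% there and 73.6% to 78.4% in posterior controls. In posterior controls it was Pax9 (38.1 CPM), Pax1 (6.34), Pax7 (0.901), Pax3 (0.252) and Pax6 (0.0362), again without overlap between neighbours on either length. Under tamoxifen the first 4 places were the same in each palate part.

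**Figure D1:**
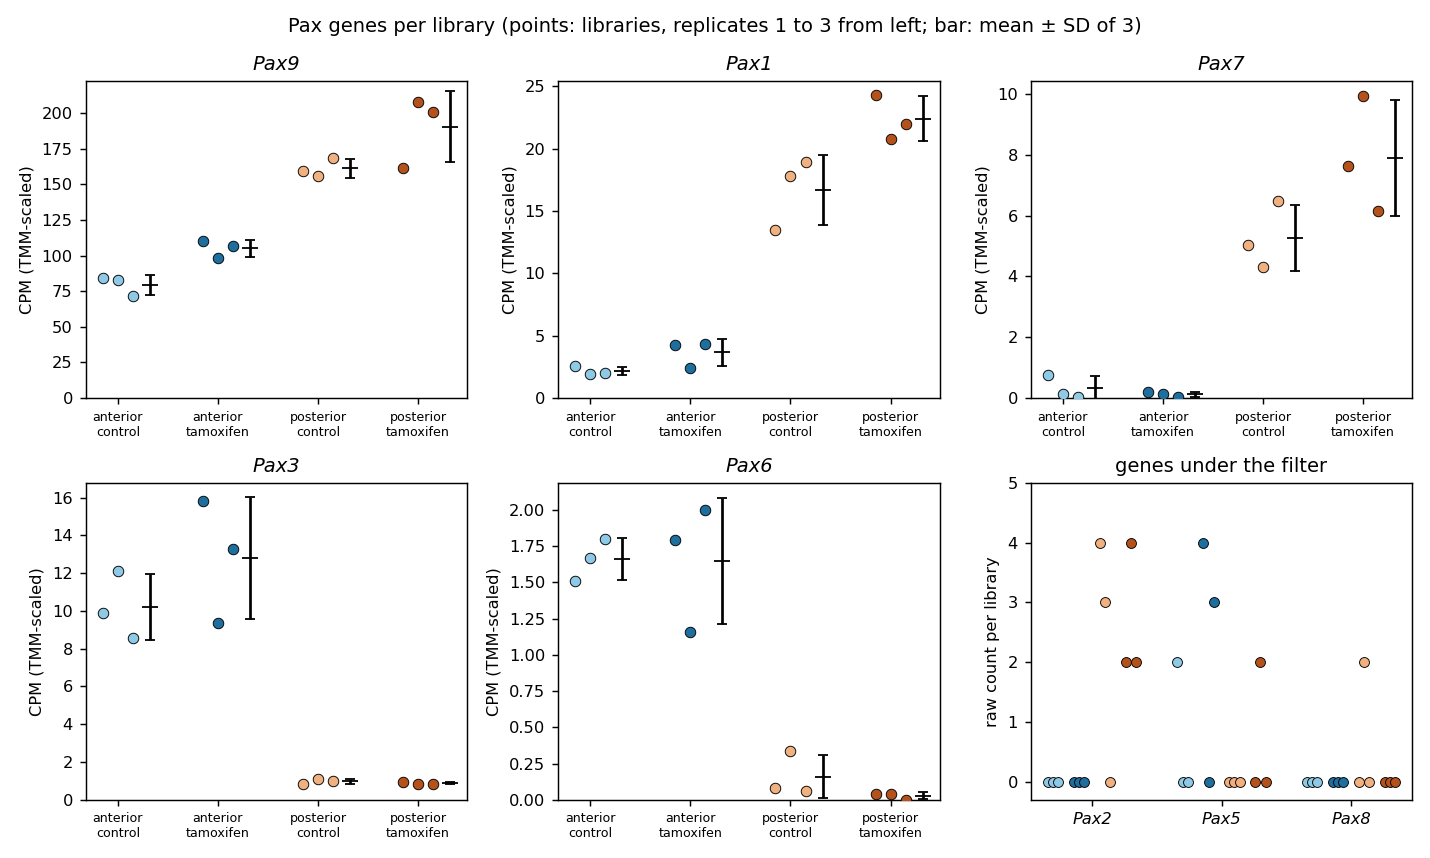
TMM-scaled CPM (y axis, linear) of the 5 tested Pax genes by group, and raw counts of the 3 untested ones in the last panel. Points are libraries, and bars give the mean ± SD of 3. Pax9, Pax1 and Pax7 sit higher in all 6 posterior libraries, and Pax3 and Pax6 in all 6 anterior ones.

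The first comparison was between palate parts in the controls. Pax9, Pax1 and Pax7 were called lower in the anterior than in the posterior palate, and Pax3 and Pax6 higher (edgeR, adjusted p under 0.05). The share called among all 15958 genes was 23.3% in this comparison, 10.2% higher and 13.1% lower, and 41.2% had no overlap between the 3 and 3 values, as was the case for these 5. Since Pax6 and Pax7 entered the test through one palate part, the count of 5 is a description. With a trend of counts with transcript length and GC content removed, the same 5 were called in each region comparison, where 27.1% (controls) and 24.9% (tamoxifen) of all genes were.

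Pax9, which is required for palatal shelf growth in mice, measured 84.3, 82.6 and 71.5 CPM in the anterior control libraries and 159.5, 155.8 and 168.2 CPM in the posterior ones. The lowest posterior library lay far above the highest anterior one. The level was 2.03-fold lower anteriorly (log2 fold change -1.02, SE 0.09, edgeR adjusted p = 5.3e-07). Under tamoxifen the log2 difference was -0.86 (SE 0.09, edgeR adjusted p = 3.4e-06).

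Pax1, the paralogue of Pax9 that is known from the sclerotome and the pharyngeal pouches, had 2.53, 1.89 and 2.04 CPM in anterior controls. In posterior controls it had 13.55, 17.79 and 18.9 CPM. Its regional difference was larger than that of Pax9, at 7.79-fold (log2 -2.96, SE 0.20, edgeR adjusted p = 1.9e-08), although the difference between the 2 genes was not tested. The Pax9 level per kilobase was 20.8 to 27.4 times that of Pax1 in anterior controls and 5.47 to 7.36 times in posterior controls. On the median transcript length the ratios were lower, at 12.3 to 16.1 and 3.22 to 4.32. Under tamoxifen Pax1 was 6.07-fold lower anteriorly (log2 -2.60, SE 0.19, edgeR adjusted p = 3.1e-08).

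Pax7 marks muscle progenitors and part of the cranial neural crest. It had 0.768, 0.145 and 0.0468 CPM in anterior controls, from 31, 6 and 2 counts, and 5.03, 4.32 and 6.47 CPM in posterior controls. Anterior replicate 1 stood above the other 2 anterior control libraries but below every posterior one. The difference was 16.6-fold (log2 -4.05, SE 0.53, edgeR adjusted p = 8.3e-05). Without anterior control replicate 1 it was -5.79 on the log2 scale (adjusted p = 2.1e-07). Under tamoxifen the 3 anterior libraries held 14, 6 and 2 counts of Pax7, the posterior level was 7.64, 9.93 and 6.14 CPM, and the difference was -5.88 (SE 0.58, edgeR adjusted p = 5.8e-06).

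Pax3, which acts in neural crest and in migrating muscle precursors, showed the opposite pattern to its paralogue Pax7. Its anterior control libraries had 9.91, 12.1 and 8.59 CPM and its posterior ones 0.820, 1.12 and 0.974 CPM. The anterior level was 10.5-fold higher (log2 3.39, SE 0.22, edgeR adjusted p = 9.2e-09), and 14.6-fold higher under tamoxifen (log2 3.86, SE 0.22, edgeR adjusted p = 1.7e-09). Per kilobase, Pax7 was 0.0036 to 0.0511 times Pax3 in anterior control libraries and 2.54 to 4.38 times Pax3 in posterior control libraries. Under tamoxifen these ratios were 0.00221 to 0.00945 and 4.78 to 7.90. The palate parts thus had opposite leading members of this pair in all 12 libraries.

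**Figure D2:**
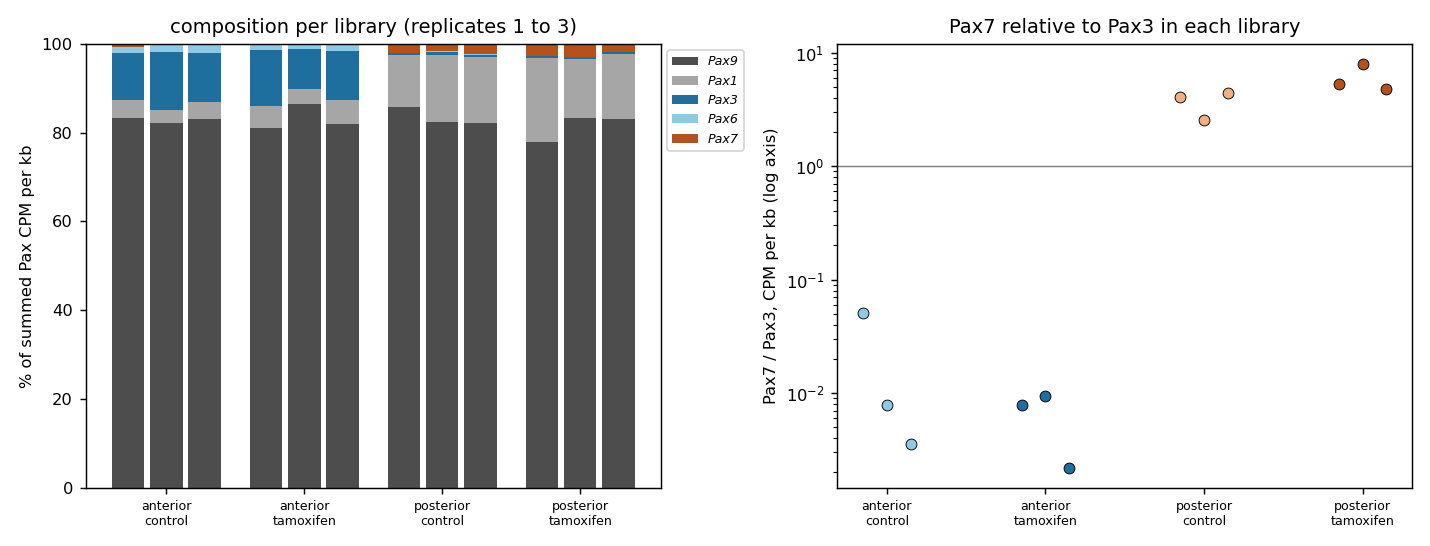
Left, percent of the summed Pax CPM per kilobase taken by each tested member in each library. Right, ratio of Pax7 to Pax3 per kilobase (log axis), with points for libraries and a line at 1. The Pax9 share lies between 78.0% and 86.5% in all libraries, and the Pax7 to Pax3 ratio lies below 1 in the anterior and above 1 in the posterior libraries.

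Pax6, a regulator of eye and nasal development, was scarce but regional. Anterior controls had 1.51, 1.67 and 1.80 CPM. Posterior controls had 0.0841, 0.334 and 0.0622 CPM, from 4, 14 and 3 counts, so that replicate 2 stood above the others. The anterior level was 10.6-fold higher (log2 3.40, SE 0.49, edgeR adjusted p = 7.1e-05), and the log2 difference was 4.46 without posterior control replicate 2 (adjusted p = 2e-05). Under tamoxifen the difference was 5.76 (SE 0.62, edgeR adjusted p = 3.3e-06), against a posterior group with 4 counts of Pax6 in all. In that comparison 17.8% of all genes were called, 7.60% higher and 10.2% lower, and 33.1% had no overlap. The same 5 Pax genes were called in the same directions without overlap. Since Pax6 and Pax7 entered the test through one palate part, their regional p-values and this count are a description.

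Pax2 (kidney, ear and optic stalk), Pax5 (B cells and midbrain) and Pax8 (thyroid and kidney) were near or at 0. Pax2 had no counts in the 6 anterior libraries, which allows up to 0.0244 CPM in the controls and up to 0.0185 CPM in the treated group (3 counts over each group's total). In the posterior palate it had 4, 3 and 0 counts in controls and 2, 4 and 2 under tamoxifen. Pax5 had 2, 0 and 0 counts in anterior controls, 4, 0 and 3 in anterior tamoxifen libraries, none in posterior controls (up to 0.0215 CPM) and 0, 2 and 0 in posterior tamoxifen libraries. Pax8 had 2 counts in 1 posterior control library and none elsewhere. These limits cover counting error only. The 3 genes did not pass the low-count filter, so differences between groups were not tested for them. Pax2 had 15 counts over the 6 posterior libraries and 0 over the 6 anterior ones.

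Genes linked to each Pax member were read from lists chosen with earlier results of these data known. Of 10 Pax-Six-Eya-Dach genes, 3 were called higher anteriorly in controls and 2 lower, where 10.2% of all genes were called higher and 13.1% lower, with a median log2 difference of 0.05 against 0.02 over all genes. The cofactor gene Eya1 was higher anteriorly (68.1 ± 0.644 against 30.8 ± 1.01 CPM, log2 1.14, SE 0.11, edgeR adjusted p = 8.6e-07), and so was Six2 (log2 0.85), named after its values were seen. Dach1, a corepressor gene, was lower anteriorly (12.7 ± 1.54 against 36.9 ± 2.37 CPM, log2 -1.54, SE 0.13, edgeR adjusted p = 2.9e-07), and so was Eya2 (-0.28), also named afterwards, whose call was lost without anterior control replicate 1. Of 13 palate and tooth genes linked to Pax9, 7 were called higher and 2 lower anteriorly, with a median of 1.01. Msx1, a homeobox gene whose protein works with Pax9 in tooth development, had a log2 difference of 4.87, while Barx1 (-1.29) and the Wnt inhibitor gene Dkk2 (-0.94) were the 2 lower ones. The list is therefore mixed, and most of its called members were higher in the part of the palate where Pax9 was lower. Msx1 and Barx1 were also among the markers used to check the region labels, so their directions are not separate from that check.

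Of 9 tested sclerotome, cartilage and pharyngeal genes linked to Pax1 and Pax9, 7 were called lower anteriorly in controls and 1 higher, with a median of -2.36. Among all genes 13.1% were called lower and 10.2% higher, with a median of 0.02. Nkx3-2, a chondrogenic gene known as a target of Pax1 and Pax9 in the sclerotome, had 0.471, 0.0484 and 0.0234 CPM in anterior controls and 10.4, 8.74 and 8.99 CPM in posterior controls (log2 -5.70, SE 0.45, edgeR adjusted p = 3.1e-07). The cartilage collagen gene Col2a1 differed by -2.36, Foxc2 by -2.87 and Meox2, also one of the posterior markers used to check the labels, by -4.27. Anterior control replicate 1 was the highest anterior library for Nkx3-2, as it was for Pax7.

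Of 10 tested myogenic genes linked to Pax3 and Pax7, 9 were called lower anteriorly in controls, and 1 higher, with a median of -4.79. The shares over all genes were 13.1% lower and 10.2% higher, and their median was 0.02. Myod1, a master gene of muscle fate, had 1.63, 0.387 and 0.539 CPM in anterior controls and 38.5, 30.5 and 32.8 CPM in posterior controls (log2 -5.32, SE 0.39, edgeR adjusted p = 2e-06). The summed level of 9 skeletal muscle markers ran from 7.07 to 18.1 CPM in anterior controls and from 388.3 to 438.8 CPM in posterior controls, and 8 of the 9 were called lower anteriorly. None of the 9 was at 0 in all 3 libraries of a group. The muscle marker sum thus followed Pax7 and ran opposite to Pax3, and its part in the Pax7 difference was not tested.

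Of 9 tested neural crest and melanocyte genes linked to Pax3, 1 was called higher anteriorly in controls and 2 lower, close to the 10.2% and 13.1% of all genes, with a median of 0.24. Tfap2a, a crest and surface ectoderm gene, was the higher one (log2 1.95, SE 0.11, edgeR adjusted p = 3.8e-09), while Sox10, a crest and glial gene, had 0.24 (adjusted p = 0.057). The lower ones, opposite to Pax3, were Zic1 (log2 -7.98, SE 1.14, edgeR adjusted p = 0.00012) and Ednrb (-0.51, adjusted p = 0.0065). Zic1 was at 0 in all 3 anterior control libraries. Of 6 tested eye, nasal and neural genes linked to Pax6, 2 were called higher, against 10.2% of all genes, and none lower. They were Six3, an eye and forebrain gene (13.8 ± 2.67 against 0.831 ± 0.319 CPM, log2 4.04, SE 0.23, edgeR adjusted p = 3e-09), and Sox2 (1.03). Epithelial markers moved in the same direction as Pax6 and Pax3: 9 of 12 were called higher anteriorly, against 10.2% of all genes, and none lower, with sums of 1228.5 to 1504.6 CPM in anterior and 767.2 to 830.2 CPM in posterior controls. None was at 0 in a group, and their part in the Pax3 and Pax6 differences was not tested. Palatal mesenchyme markers had 2 of 10 called higher and 5 lower, with sums of 9881.2 to 10359.0 CPM against 15261.6 to 16880.8 CPM.

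**Figure D3:**
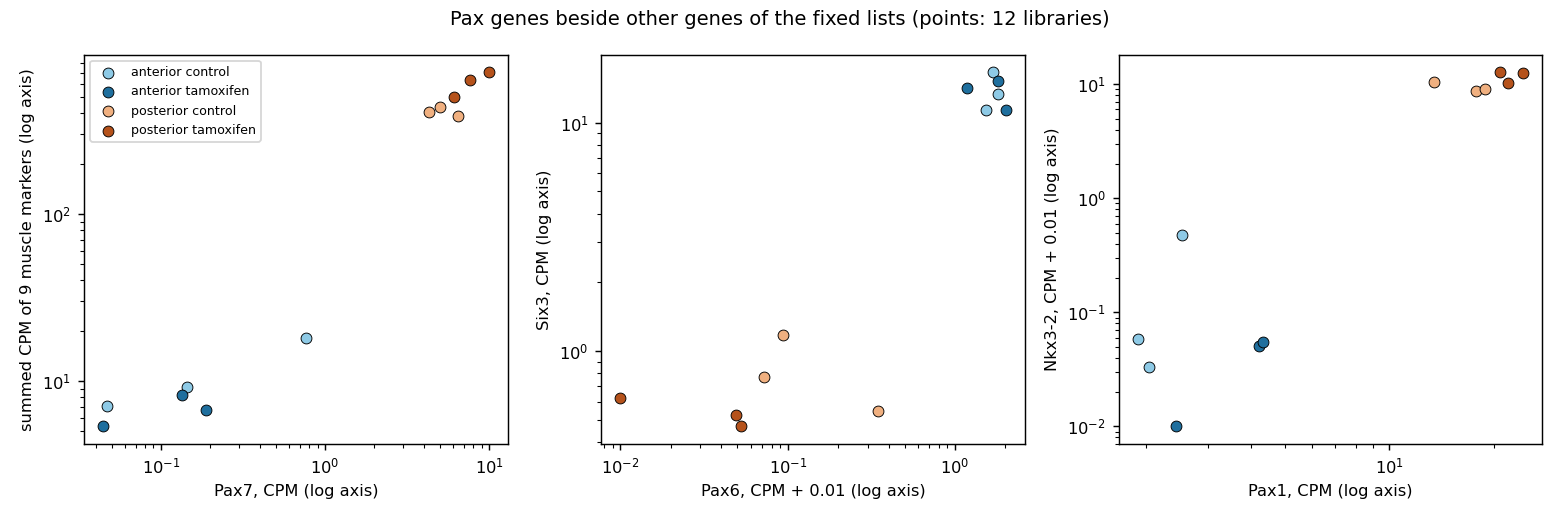
Each panel plots 12 libraries on log axes: Pax7 against the summed CPM of 9 skeletal muscle markers, Pax6 (CPM + 0.01) against Six3, and Pax1 against Nkx3-2 (CPM + 0.01). Anterior and posterior libraries form separate clusters in all 3 panels, and anterior control replicate 1 (Pax7 at 0.768 CPM, Nkx3-2 at 0.471 CPM) is the highest anterior point for muscle markers and for Nkx3-2.

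Tamoxifen was compared with control within each palate part. In the anterior palate Pax9 and Pax1 were called higher and no Pax gene lower, where 49.7% of all genes tested were called, 25.6% higher and 24.0% lower. A count of 2 of 5 is close to that background. Pax9 rose from 84.3, 82.6 and 71.5 CPM to 110.3, 98.4 and 106.7 CPM without overlap, as for 56.5% of all genes (log2 0.40, SE 0.09, edgeR adjusted p = 0.0019). When a trend of the counts with transcript length and GC content was removed from each library, the Pax9 change was 0.15 (SE 0.09, adjusted p = 0.23), so the call was lost, in a fit that called 32.5% of all genes. In the RefSeq annotation the gene span of Slc25a21 overlaps that of Pax9, and Slc25a21 was lower with tamoxifen (9.19 ± 0.911 to 4.87 ± 0.315 CPM, log2 -0.92, edgeR adjusted p = 1.8e-05). Reads in a shared stretch cannot be assigned, since strand use in counting is not given in the sources used here.

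Pax1 rose in the anterior palate from 2.53, 1.89 and 2.04 CPM to 4.23, 2.44 and 4.33 CPM (log2 0.78, SE 0.21, edgeR adjusted p = 0.0049). Tamoxifen replicate 2 lay just under the highest control library, so the groups overlapped. The call held in all 24 alternatives run, with log2 changes of 0.66 to 1.15, and the change was 1.15 (SE 0.21, adjusted p = 0.00086) after removal of the length and GC trend.

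Pax3 had 15.8, 9.38 and 13.3 CPM with tamoxifen in the anterior palate against 9.91, 12.1 and 8.59 CPM, and did not pass (log2 0.33, SE 0.18, edgeR adjusted p = 0.13). Without tamoxifen replicate 2, its lowest treated library, the change was 0.52 and was called (adjusted p = 0.014). Pax6 had 1.79, 1.16 and 2.00 CPM against 1.51, 1.67 and 1.80 CPM (log2 -0.01, SE 0.39, edgeR adjusted p = 0.99). Pax7 had 0.189, 0.134 and 0.0444 CPM with tamoxifen (log2 -1.24, SE 0.77, edgeR adjusted p = 0.20). That value turned to 0.47 (adjusted p = 0.60) without anterior control replicate 1 and was -1.76 (adjusted p = 0.041) without anterior control replicate 3, so single libraries set its direction and its call.

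In the posterior palate 29.0% of all genes were called, 17.3% higher and 11.7% lower, and 1 of the 5 tested Pax genes was, namely Pax6, which was lower. Its counts were 4, 14 and 3 in controls and 2, 2 and 0 with tamoxifen, or 0.0841, 0.334 and 0.0622 CPM against 0.0391, 0.0425 and 0 CPM. All 3 treated libraries lay below the controls, as for 48.0% of all genes without overlap, but at a handful of counts (log2 -2.37, SE 0.81, edgeR adjusted p = 0.039). Without posterior control replicate 2 the change was -1.31 and the call was lost (adjusted p = 0.25). It was also lost without tamoxifen replicate 1 (adjusted p = 0.076), 2 (0.061) or 3 (0.11), and held in 15 of 23 alternatives.

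Pax1 had 24.3, 20.8 and 22.0 CPM with tamoxifen in the posterior palate against 13.55, 17.79 and 18.9 CPM, without overlap, but did not pass (log2 0.42, SE 0.17, edgeR adjusted p = 0.078). With the length and GC trend removed it was called (log2 0.61, SE 0.17, adjusted p = 0.026), in a fit that called 17.9% of all genes. Pax9 had 161.8, 208.2 and 201.1 CPM against 159.5, 155.8 and 168.2 CPM (log2 0.24, SE 0.09, edgeR adjusted p = 0.062). Tamoxifen replicate 1 lay within the control range, and without it the change was 0.33 (adjusted p = 0.018). The same library had the lowest sum of palatal mesenchyme markers in its group, 11727.9 CPM against 16883.0 and 18179.2 CPM, and its part in the Pax9 value was not tested. Pax7 had 7.64, 9.93 and 6.14 CPM against 5.03, 4.32 and 6.47 CPM (log2 0.58, SE 0.39, edgeR adjusted p = 0.29), and Pax3 had 0.957, 0.829 and 0.848 CPM against 0.820, 1.12 and 0.974 CPM (log2 -0.14, SE 0.25, edgeR adjusted p = 0.70). Skeletal muscle markers summed to 500.3 to 705.0 CPM with tamoxifen against 388.3 to 438.8 CPM. Of the 9 markers 4 were called higher, where 17.3% of all genes were. With the trend removed 2 were called higher, in the fit that called 17.9% of all genes. Tamoxifen replicate 2, the highest library for Pax7, also had the highest muscle marker sum.

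**Figure D4:**
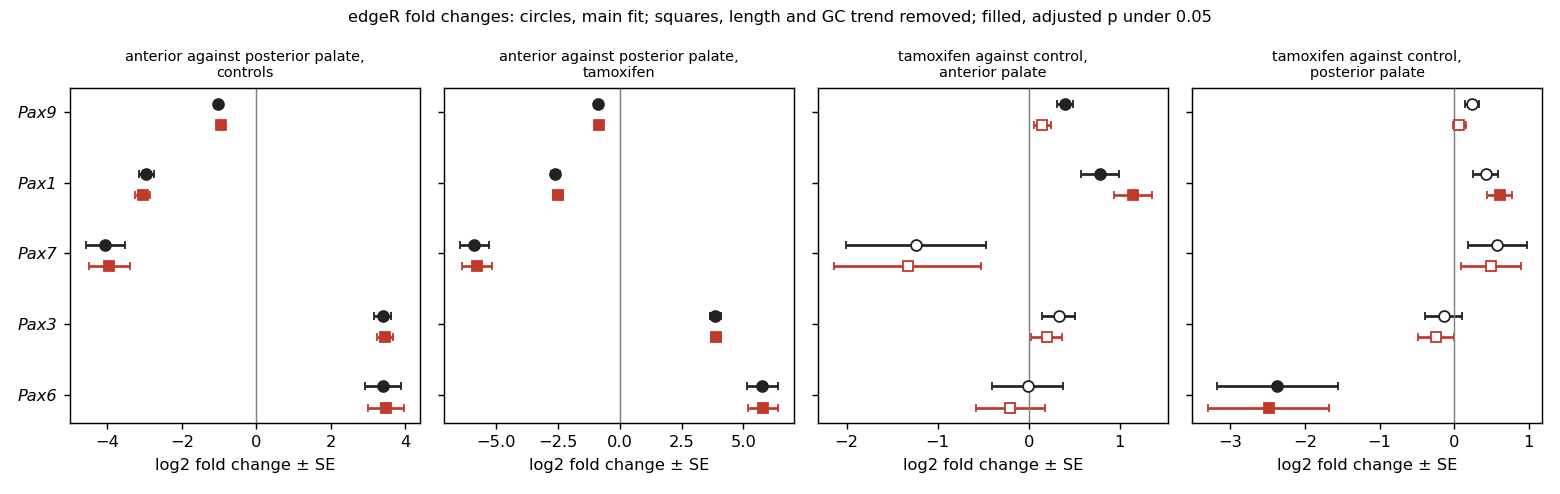
Log2 fold changes ± SE (x axis) of the 5 tested Pax genes in 4 comparisons, from edgeR as counted (circles) and with the length and GC trend removed (squares). Filled symbols have an adjusted p under 0.05. The regional differences stay on one side of 0 in both fits, while the anterior tamoxifen change of Pax9 goes from 0.40 to 0.15 and the posterior change of Pax1 from 0.42 to 0.61.

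The treatment effect was compared between palate parts by an interaction term. None of the 5 Pax genes was called, where 0% of all genes were (smallest adjusted p = 0.081), 2110 genes had an unadjusted p under 0.05, DESeq2 called 183 and limma-voom 0. The difference of effects (anterior minus posterior) was 2.36 for Pax6 (log2, SE 0.91, edgeR adjusted p = 0.31) and -1.82 for Pax7 (SE 0.86, adjusted p = 0.38). It was 0.36 for Pax1 (adjusted p = 0.57), 0.47 for Pax3 (0.50) and 0.16 for Pax9 (0.60). The calls in one palate part and not in the other are therefore not shown to differ.

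Among Pax partner genes, 4 of the 10 Pax-Six-Eya-Dach genes were called higher and 2 lower with tamoxifen anteriorly (3 and 1 with the trend removed), and 5 higher and none lower posteriorly (2 and none). Among all genes 49.7% were called anteriorly and 29.0% posteriorly, and 32.5% and 17.9% with the trend removed, so the anterior counts are near the background. The median changes were 0.24 and 0.28, against -0.02 and 0.02 over all genes. Eya4, a transcriptional coactivator gene, rose from 23.1 ± 3.14 to a mean of 53.3 CPM anteriorly (libraries at 50.16, 65.98 and 43.61 CPM, n = 3, log2 1.20, SE 0.13, edgeR adjusted p = 5.7e-06) and from 27.9 ± 2.32 to 49.5 ± 3.87 CPM posteriorly (log2 0.83, SE 0.13, edgeR adjusted p = 0.0007). Its changes with the trend removed were 0.70 and 0.52 and were still called. Six4 changed by 0.87 and 0.60, and by 0.30 (called) and 0.23 (adjusted p = 0.089) with the trend removed. Of 8 corepressors and interacting proteins, 1 was called higher and 4 lower anteriorly, and none higher and 2 lower posteriorly. Among all genes 49.7% and 29.0% were called, and 24.0% and 11.7% were called lower. With the trend removed, 1 was called higher and 5 lower anteriorly, and 0 higher and 3 lower posteriorly. That fit called 32.5% and 17.9% of all genes. Tle2, a Groucho corepressor gene, fell from 107.5 ± 0.895 to 49.0 ± 5.18 CPM anteriorly (log2 -1.13, SE 0.11, edgeR adjusted p = 1.7e-06) and from 97.8 ± 11.2 to 69.2 ± 9.91 CPM posteriorly (log2 -0.50, SE 0.11, edgeR adjusted p = 0.0035).

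Of the 13 palate and tooth genes linked to Pax9, 2 were called higher and 6 lower with tamoxifen anteriorly, and 2 and 1 posteriorly, where 49.7% and 29.0% of all genes were called. With the trend removed the counts were 0 and 2, and 1 and 0, below the 32.5% and 17.9% of all genes. The 2 that were lower in both anterior fits were Tfap2b, a crest-derived mesenchyme gene (log2 -0.84, and -1.31 with the trend removed), and Lef1, a Wnt effector gene (-0.51 and -0.69). Barx1 fell by 0.74 on the log2 scale, but its value with the trend removed was 0.06 (adjusted p = 0.71). Of the 9 sclerotome and cartilage genes, none was called higher and 4 lower anteriorly, Foxc2 among them (8.12 ± 0.484 to 3.22 ± 0.048 CPM, log2 -1.34, SE 0.13, edgeR adjusted p = 1.7e-06, and -0.78 with the trend removed), against 24.0% of all genes called lower. The 4 became 2 with the trend removed, where 32.5% of all genes were called, as Nkx3-2 (adjusted p = 0.29) and Col2a1 (0.67) lost the call. Both also lost it without anterior control replicate 1, where Meox2 was called higher. Pax1 was higher in the same libraries. Of the 10 myogenic genes none was called higher and 4 lower anteriorly (1 with the trend removed). Among all genes 24.0% were called lower there, and 32.5% were called in either direction with the trend removed. Anterior control replicate 1 stood apart in muscle markers, with a sum of 18.1 CPM against 9.26 and 7.07 CPM in the other controls and 5.35 to 8.24 CPM with tamoxifen. Without it 2 of the 4 were called lower, and Myod1 and Myh3 were not. In the posterior palate 1 of the 10 was called higher (4 with the trend removed), led by Myog (log2 0.47, SE 0.16, edgeR adjusted p = 0.042). Among all genes 17.3% were called higher posteriorly, and 17.9% were called in either direction with the trend removed.

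The genes whose level most resembled that of each tested Pax gene were read from Pearson's r over the 12 libraries, among genes with a mean of at least 1 CPM. It was taken on log2 CPM after 0.1 CPM was added. These values describe libraries that share the regional split and the treatment, and r within the 6 libraries of each palate part is given beside them. For Pax9 the closest were Zfp521 (r = 0.992 over 12 libraries, 0.97 anterior and 0.95 posterior), the fibrillar collagen gene Col11a1 (0.991, 0.95 and 0.96) and the ephrin gene Efnb2 (0.989, 0.94 and 0.90). For Pax1 they were the receptor kinase gene Axl (0.988, 0.91 and 0.55), the neurofilament gene Nefm (0.988, 0.85 and 0.65) and Jazf1 (0.986, 0.87 and 0.74). For Pax7 all 3 were muscle genes, namely the cardiac actin gene Actc1 (0.993, 0.92 and 0.86), Smyd1 (0.991, 0.92 and 0.76) and Actn2 (0.99, 0.88 and 0.83). For Pax3 they were Cadm3 (0.991, 0.85 and -0.16), Atp6v1b1 (0.99, 0.71 and 0.38) and 5430421F17Rik (0.987, 0.40 and 0.14). For Pax6 they were Galnt13 (0.969, 0.28 and 0.78), As3mt (0.968, 0.07 and 0.84) and Pax3 itself (0.968, 0.50 and 0.75). Within a palate part r stayed at 0.76 or above for the closest genes of Pax9 and Pax7, and went down to -0.16 for those of Pax3 and 0.07 for those of Pax6. The posterior r of Pax6 rests on 4, 14 and 3 counts in controls and 2, 2 and 0 with tamoxifen. All of these libraries but posterior control replicate 2 were below the 0.1 CPM that was added. The anterior r of Pax7 rests on 31, 6 and 2 counts in controls and 14, 6 and 2 with tamoxifen. Anterior control replicate 1 was the highest anterior library for both Pax7 (0.768 CPM) and the muscle marker sum (18.1 CPM), and r without it was not computed.

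Neighbouring genes of Pax3 and Pax6 had no called regional difference in controls. Epha4, next to Pax3, had 116.8 ± 16.3 CPM in anterior and 124.0 ± 8.33 CPM in posterior controls (log2 -0.09, edgeR adjusted p = 0.60), and rose with tamoxifen by 0.95 anteriorly and 0.47 posteriorly (adjusted p = 4.9e-06 and 0.0045). Elp4, whose RefSeq span overlaps that of Pax6, had 20.4 ± 1.65 and 23.1 ± 1.64 CPM (log2 -0.18, adjusted p = 0.21). The antisense transcript Pax6os1 had 5 counts over 12 libraries. Slc25a21, overlapping Pax9, was lower anteriorly in controls (log2 -0.52, edgeR adjusted p = 0.0034), as Pax9 was. With tamoxifen Slc25a21 was called lower in both palate parts (log2 -0.92 anteriorly and -0.59 posteriorly, edgeR adjusted p = 1.8e-05 and 0.002). The Pax9 changes were 0.40 anteriorly, called in the main fit, and 0.24 posteriorly, not called. Prps1l3, the tested gene next to Pax9, had no called regional difference (log2 -0.14, edgeR adjusted p = 0.25) and rose with tamoxifen by 0.62 anteriorly (adjusted p = 2.6e-05) and 0.37 posteriorly (adjusted p = 0.0052).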

How the data were processed

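The authors deposited 1 raw count per gene symbol for each of 12 libraries. Per the submitters' processing notes, HISAT2, StringTie and mm9 were used; the sources used here do not give versions, counting program, annotation or strand. Counts of 1 to 100 were even in 57.1 to 60.1% of cases per library, so mates of a pair may have been counted separately, and counts divided by 2 were an alternative. R 4.3.3 with edgeR 4.0.16 was used: filterByExpr by group, TMM, and glmQLFit (robust) on 4 group means and 12 libraries, leaving 8 residual degrees of freedom. Calls were made at a Benjamini-Hochberg adjusted p under 0.05. The adjustment covered the 15958 genes of each of the 5 comparisons separately. SE is the log2 fold change divided by the square root of F. The smallest exact p for 3 against 3 is 0.1, hence levels were not tested separately. Fits were tested on simulated data. No replicate pair agreed within counting noise, so none was merged.

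Alternatives were DESeq2 1.42.0, limma-voom 3.58.1, other scalings, filters and thresholds, removal of a length and GC trend (natural splines, 4 degrees of freedom each), the replicate number as a block, the compared groups alone, and leaving out each library. Transcript length was that of the longest GENCODE model of a symbol, found for 15844 of the tested genes. The members, lists and tests were chosen with earlier results of these data known. All 8 members are named, with up to 2 called genes per list by adjusted p, any member of a list tied to 1 Pax gene or pair, and the 3 most alike genes. Some genes that met these rules are not reported here.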

Additional observations from a re-analysis of the deposited data

How the results depend on the processing

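Regional differences were called for the same 5 Pax genes, in the same direction, in all 24 alternatives, in controls and under tamoxifen. For Pax6 and Pax7, which passed the low-count filter through the palate part where they are high, this is a description. Treatment calls were less stable. In the anterior palate the 2 Pax genes called became 1 (Pax1) with the length and GC trend removed, with or without the replicate block, and 2 to 3 when each library was left out. In the posterior palate the 1 call (Pax6) became 0 at an adjusted p under 0.01 and with counts divided by 2, and 2 with the trend removed (Pax6 and Pax1) or with only the compared groups fitted (Pax1 and Pax7, where Pax6 was not among the 4 tested), and 0 to 2 when each library was left out. No called change of a Pax gene reversed. With the trend removed 5189 genes were called anteriorly (7924 without removal, 3776 in both, 3448 of these in the same direction) and 2860 posteriorly (4625, 1815 and 1798), and DESeq2 called 183 genes for the interaction against 0 by edgeR. Of the members' log2 fold changes over all settings, 573 kept their side of the threshold, 10 were newly called and 10 lost the call, and the cause was not tested. Depth limits Pax6 in the posterior palate, Pax7 in the anterior palate, and Pax2, Pax5 and Pax8 throughout.

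Of 18 same-number pairs across groups, 2 had correlated deviations above 0.1 (range -0.06 to 0.15). Both joined anterior and posterior tamoxifen libraries, of replicate 1 (0.15) and replicate 3 (0.14). For replicate 2 this value was -0.01, and the anterior and posterior controls had -0.04, 0.02 and 0.08. Here 0 libraries correlated best with their own number in every other group, a rule that also asks for matches across treatments. Whether the palate parts of one treatment are paired was therefore not settled, and the main fit took the libraries as unpaired. With the replicate block, posterior Pax calls were 0 (Pax6, adjusted p = 0.054) and anterior ones 2.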
